A study of Mus musculus with 6 samples.

Results

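The genes described here encode the subunits of heterotrimeric G proteins and the regulators of G protein signalling (RGS proteins). They were chosen by symbol from the deposited count table, with Gnas left out, and 57 of the table's 57010 genes met the rule. These 57 members are 34 alpha, beta and gamma subunit genes or pseudogene rows and 23 RGS genes, including the 2 anchor genes Rgs7bp and Rgs9bp. A further 18 genes, called partners here, share at least 1 exonic base with a member on the opposite strand. The partners lie opposite 17 of the members, and the 75 genes together are described below. The neurons were wild-type primary cortical neurons from cortices taken at embryonic day 16.5 and cultured for 7 days in vitro (3 libraries), and they were compared with wild-type mouse embryonic stem cells (ESCs; 3 libraries). The labels give no perturbation treatment for either group, but the library names of neuron replicates 2 and 3 hold the word empty, which the labels do not explain. Nothing in the labels says whether the replicates were separate cultures or animals, so p-values measure the spread between these samples, which may be technical. The batch label is the same as the group in every sample, so batch and cell type cannot be told apart. The study collected both groups as end points for a developmental trajectory into which data from Rai1-deficient cells were placed.

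A heterotrimeric G protein is made of an alpha subunit, which binds GDP or GTP, and a paired beta and gamma subunit. A receptor that binds its ligand loads GTP onto the alpha subunit, which then separates from beta-gamma, and both act on effectors such as adenylyl cyclases, phospholipase C-beta and potassium channels. RGS proteins speed the hydrolysis of GTP by the alpha subunit and so end the signal. In the brain the alpha subunit of Go is among the most abundant membrane proteins, and Golf, Gi and Gq relay signals from dopamine, acetylcholine, serotonin and glutamate receptors.

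Total counts were 1368303 to 1775055 in ESCs and 513425 to 624792 in neurons, so that 3 counts, the limit that a count of 0 allows, correspond to 2.26 to 2.90 CPM (counts scaled to a library of standard size) in ESCs and 3.92 to 4.81 CPM in neurons. These limits and all ratio intervals cover counting error only. Genes that share exonic bases with an opposite-strand gene held 90.9% to 91.9% of the counts in ESCs and 88.5% to 89.4% in neurons. How strand was treated in counting is not given in the sources used here. Counts of a member and of its partner can therefore not be assigned to one strand with certainty, and they are given side by side. The same limit holds for the counts of members with no partner. Levels, rises and falls below are those of the counts and may not be those of the genes' expression. Markers of the labelled cells are likewise given with the genes opposite them. The 10 pluripotency markers summed to 168 to 243 CPM in ESCs and 3.92 to 4.81 CPM in neurons, where Pou5f1, Nanog, Zfp42, Esrrb, Dppa5a and Utf1 were at 0, while the 2 genes opposite these markers summed to 14260 to 14810 CPM in ESCs and 0 in neurons. The 12 neuron markers summed to 209 to 248 CPM in ESCs, with Rbfox3, Snap25 and Slc17a6 at 0, and to 1078 to 1305 CPM in neurons, with none at 0. The 1 gene opposite them stood at 10.9 to 18.8 CPM in ESCs and 928 to 1104 CPM in neurons. Markers of other cells also differed between the groups. Of 6 astrocyte markers, 5 had counts in neurons, with Aldh1l1 at 0 and a sum of 41.7 to 67.1 CPM against 2.72 to 5.27 CPM in ESCs, and the opposite genes summed to 1274 to 1840 CPM against 169 to 199 CPM. Of 5 neural progenitor markers, 4 had counts, with Vim at 0 and a sum of 74.5 to 117 CPM against 30.0 to 34.6 CPM, and the opposite gene stood at 334 to 452 CPM against 0. Of 5 microglia markers, 4 had counts, with Tmem119 at 0 and a sum of 130 to 145 CPM against 201 to 266 CPM, while the opposite genes ran the other way, at 27.3 to 44.4 CPM against 10.5 to 12.6 CPM. The 3 endothelial markers summed to 0 to 2.98 CPM in neurons, with Kdr at 0, and 1.51 to 6.33 CPM in ESCs. The 3 fibroblast markers summed to 1.31 to 1.60 CPM in neurons, with Col1a1 and Pdgfrb at 0, and 1.51 to 6.77 CPM in ESCs, with Col1a2 at 0. The part of other cell types in the results below was not tested. In bulk libraries such as these, fewer cells of a type and less RNA per cell cannot be told apart.

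Of the 57 members, 10 had no count in any library, 19 had 1 to 10 counts in all, and 13 passed the filter on low counts and were tested. The filter works relative to library size, so the larger ESC libraries needed more counts to pass than the neuron libraries. With edgeR's quasi-likelihood test and Benjamini-Hochberg adjustment over all 7150 tested genes, 10 of the 13 tested members differed between neurons and ESCs, 5 higher and 5 lower in neurons. Among all tested genes 85.6% differed, 47.0% higher and 38.6% lower, so the members' share was near that background. Past a 2-fold change there were 8 members, 3 higher and 5 lower, beside 67.4% of all tested genes, 38.0% higher and 29.4% lower. The 3 higher, Gnao1, Gnat2 and Rgs19, passed the filter through the neuron libraries only, so they could not have been called lower. Gng7 and Gnai2, among the 5 lower, passed through the ESC libraries only. With a filter on a mean count of 10 none of those 3 was tested, and 1 member was higher and 5 were lower past 2-fold. All 16 tested partners differed, 12 higher and 4 lower in neurons. Partners near 0 in 1 group passed the filter through the other group only, which set their direction. Examples are 4930488L21Rik, near 0 in ESCs, and ENSMUSG00000121142.1, near 0 in neurons. Among all 4674 tested genes with an exonic overlap on the opposite strand, 84.6% differed, 41.2% higher and 43.4% lower. The median log2 fold change (neuron minus ESC) was 0.06 over the tested members, 2.78 over the tested partners and 0.37 over all tested genes. Scaling by total counts in place of trimmed mean of M values (TMM) factors moved the median of all genes by 0.73 on the log2 scale. Without that low-count filter, among the 47 members with at least 1 count, the CPM of all 3 neuron libraries lay above those of all 3 ESC libraries for 15 members and below them for 11. The corresponding shares of all genes with a count were 24.2% above and 22.8% below. When the model itself was fitted with no filter, 22 of these 47 members were called, 19 of them past 2-fold, beside 40.8% and 31.7% of all genes. When genes with an opposite-strand exonic overlap were left out, 4 of 7 tested members were called, all 4 past 2-fold, beside 86.1% and 72.0% of the genes kept.

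**Figure D1:**
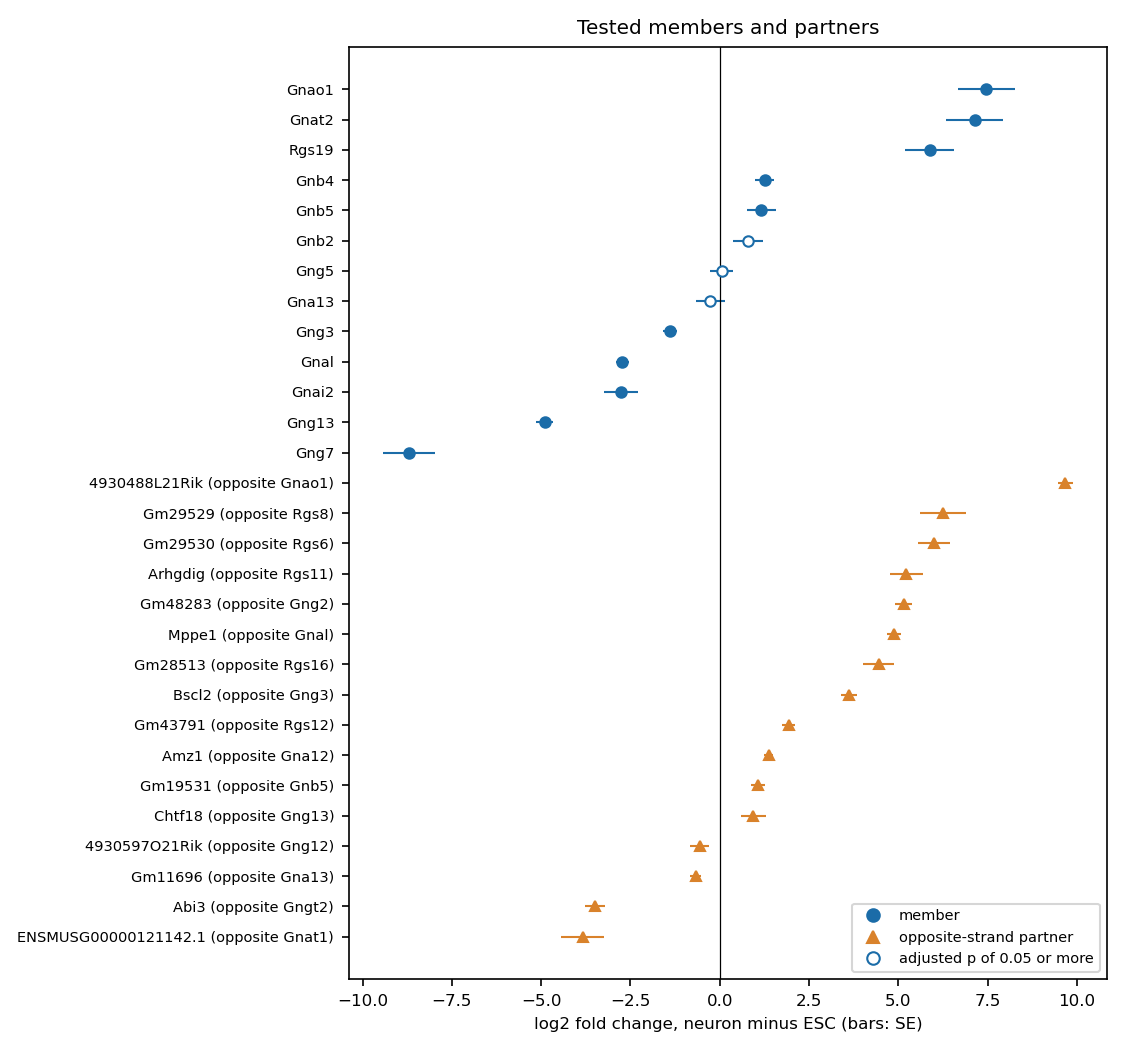
Log2 fold change (neuron minus ESC, horizontal axis) of the 13 tested members (blue circles) and the 16 tested partners (orange triangles), with bars of 1 standard error. Open symbols mark Gnb2, Gng5 and Gna13, with adjusted p of 0.05 or more, and 12 of the 16 partners lie to the right of 0.

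Among the alpha subunits, Gnao1 and Gnat2 rose in neurons, Gnal and Gnai2 fell, and Gna13 did not pass the test. Gnao1 (chromosome 8, 94536594 to 94696016, plus strand) encodes the alpha subunit of Go, the main G protein of neurons. It had no count in the 3 ESC libraries and 22, 14 and 13 counts in neurons, a level of 23.5 ± 4.54 CPM (SD, n = 3). All neuron libraries lay above the ESC libraries, and the neuron level was at least 8.94-fold higher than 3 counts per ESC library. Its log2 fold change was 7.46 (SE 0.80, edgeR quasi-likelihood adjusted p = 1.32e-10). With no count in 1 group the size of such a value depends on the method, and limma-voom gave 5.80. The same holds for fits that leave out the only library with counts in a group. The partner 4930488L21Rik (chromosome 8, 94476775 to 94540350, minus strand) shares 284 exonic bases with Gnao1, between 94536594 and 94538398, where the 5′ ends of the 2 genes overlap. Counts of 4930488L21Rik were 1, 3 and 2 in ESCs and 1184, 1034 and 921 in neurons. The groups were far apart, at 1.82 ± 1.07 and 1521 ± 38.7 CPM (SD, n = 3 each), a ratio of 880 (95% interval 404 to 2400). The log2 fold change of 4930488L21Rik was 9.67 (SE 0.21, edgeR quasi-likelihood adjusted p = 5.78e-32). Of the neuron counts at this locus Gnao1 itself thus held only 1.54%, with 1.82%, 1.34% and 1.39% in neuron libraries 1 to 3.

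The 250 bases before a RefSeq start site of each of the 2 genes are printed for their base composition. These start sites may differ from the gene ends given above. The windows come from RefSeq's promoter table of GRCm38.p6, a build other than the one used for the counts. They are written 5′ to 3′ on the strand of the gene, with CG dinucleotides in capitals. The Gnao1 window, chr8:93810588-93810837 on the plus strand, holds 36 CG dinucleotides and 76.4% G or C, and only 2.58% of all windows of that length hold as many. The 4930488L21Rik window, chr8:93813556-93813805 on the minus strand, holds 14 CG dinucleotides, as many as 29.4% of all windows hold.
Gnao1: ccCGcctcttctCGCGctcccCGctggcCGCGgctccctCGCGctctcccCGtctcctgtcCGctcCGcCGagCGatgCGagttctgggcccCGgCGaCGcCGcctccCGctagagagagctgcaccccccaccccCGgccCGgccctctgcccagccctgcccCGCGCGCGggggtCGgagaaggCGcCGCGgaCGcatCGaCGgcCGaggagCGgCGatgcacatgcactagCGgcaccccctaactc
4930488L21Rik: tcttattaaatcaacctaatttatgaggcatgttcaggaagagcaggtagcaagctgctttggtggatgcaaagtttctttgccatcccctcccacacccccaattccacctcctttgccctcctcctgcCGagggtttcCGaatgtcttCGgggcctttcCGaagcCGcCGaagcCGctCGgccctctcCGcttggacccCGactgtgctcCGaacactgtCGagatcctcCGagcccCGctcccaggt
Promoter windows were found for 40 of the 57 members (50 windows) and 6 of the 18 partners (8 windows). The median number of CG dinucleotides was 13.5 over the members' windows and 6 over all 32851 windows. The GC box GGGCGG, searched on both strands, was in 46% of the members' windows and 32.7% of all windows. The letters CCAAT were in 26% of the members' windows and 33.8% of all, and TATAAA in 12% and 12.4%.

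Gnal (chromosome 18, 67221287 to 67359863, plus strand) encodes the alpha subunit of Golf, which couples odorant and dopamine receptors to adenylyl cyclase. Its counts were 351, 227 and 264 in ESCs and 31, 25 and 19 in neurons, or 241 ± 22.4 and 36.1 ± 5.11 CPM (SD, n = 3 each). The groups did not overlap, with all ESC libraries higher. Gnal fell by 2.73 on the log2 scale (SE 0.19, edgeR quasi-likelihood adjusted p = 3.78e-16). The partner Mppe1 (67358114 to 67378901, minus strand), which encodes a metallophosphoesterase, shares 852 exonic bases with the 3′ end of Gnal. Counts of Mppe1 were 26, 13 and 12 in ESCs and 311, 323 and 255 in neurons, or 14.3 ± 4.61 and 432 ± 42.8 CPM (SD, n = 3 each). Its order was the opposite of that of Gnal, with all neuron libraries higher, and its log2 fold change was 4.87 (SE 0.19, edgeR quasi-likelihood adjusted p = 9.25e-24). When the counts of Gnal and Mppe1 were added (the sum of both strands), the sum was higher in neurons, by 1.06 on the log2 scale (edgeR quasi-likelihood adjusted p = 1.7e-09). That sum holds all counts of Mppe1, which shares only 23.6% of its exonic length with Gnal. It therefore does not show on which strand the reads over Gnal lay.

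Gnai2 (chromosome 9, 107491324 to 107512566, minus strand) encodes an alpha subunit that inhibits adenylyl cyclase, and no gene shares exonic bases with it on the other strand. Its counts were 32, 21 and 30 in ESCs and 2, 2 and 3 in neurons, so that the groups did not overlap. The neuron level was 0.142 of the ESC level (95% interval 0.0553 to 0.306), and the log2 fold change was -2.77 (SE 0.46, edgeR quasi-likelihood adjusted p = 1.22e-06). Gnat2 (chromosome 3, 108000105 to 108008748, plus strand) encodes the transducin alpha subunit of cone photoreceptors and also lacks a partner. It had no count in ESCs and 14, 13 and 12 in neurons, or 19.0 ± 0.60 CPM (SD, n = 3), a level at least 7.22-fold higher than 3 counts per ESC library. Its log2 fold change was 7.13 (SE 0.80, edgeR quasi-likelihood adjusted p = 3.77e-10). All 3 neuron libraries thus held counts at the gene of a subunit known from the retina, although the strand of those reads is not certain.

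Gna13, which encodes an alpha subunit of the G12/13 family, had 14, 17 and 17 counts in ESCs and 13, 6 and 5 in neurons, with overlapping groups in CPM and a log2 fold change of -0.26 (SE 0.40, edgeR quasi-likelihood adjusted p = 0.545). Its partner Gm11696, which shares 151 exonic bases with the 5′ part of Gna13, had 516, 310 and 333 counts in ESCs and 189, 103 and 138 in neurons. Gm11696 fell by 0.67 on the log2 scale (SE 0.15, edgeR quasi-likelihood adjusted p = 0.000139), and under scaling by total counts its log2 fold change was 0.06. Gna12, the other member of that family, had 5, 0 and 1 counts in ESCs and 2, 1 and 3 in neurons, too few to be tested. The partner of Gna12, Amz1, which encodes a metallopeptidase, had 231, 193 and 182 counts in ESCs and 321, 328 and 281 in neurons. All Amz1 neuron libraries were higher in CPM, at 453 ± 35.0 against 175 ± 11.1 CPM (SD, n = 3 each), and its log2 fold change was 1.37 (SE 0.13, edgeR quasi-likelihood adjusted p = 1.93e-12).

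The remaining alpha subunits had too few counts to be tested. Gnat1, the rod transducin, had 6, 9 and 9 counts in ESCs and 2, 1 and 2 in neurons. Its partner ENSMUSG00000121142.1, which shares 1532 exonic bases with it, had 24, 32 and 22 counts in ESCs and 1, 0 and 2 in neurons, a ratio of 0.0647 (95% interval 0.0131 to 0.196; log2 fold change -3.84, SE 0.60, edgeR quasi-likelihood adjusted p = 3.06e-07). Both genes of the Gnat1 locus were thus lower in neurons. Gnaq, which activates phospholipase C-beta, had 3, 0 and 0 counts in ESCs and 10, 7 and 3 in neurons. Gnai1 had 0, 1 and 0 counts in ESCs and 4, 2 and 4 in neurons, and Gnaz had none in ESCs and 3, 2 and 2 in neurons. Gnai3 had 4, 8 and 3 counts in ESCs and 1, 0 and 0 in neurons. In Gnaq, Gnai1 and Gnaz the neuron libraries lay above the ESC libraries in CPM, in Gnai3 below, and none of these 4 was tested. Gna11, Gna14 and Gna15 had at most 5 counts in any library, and Gnat3 had none.

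**Figure D2:**
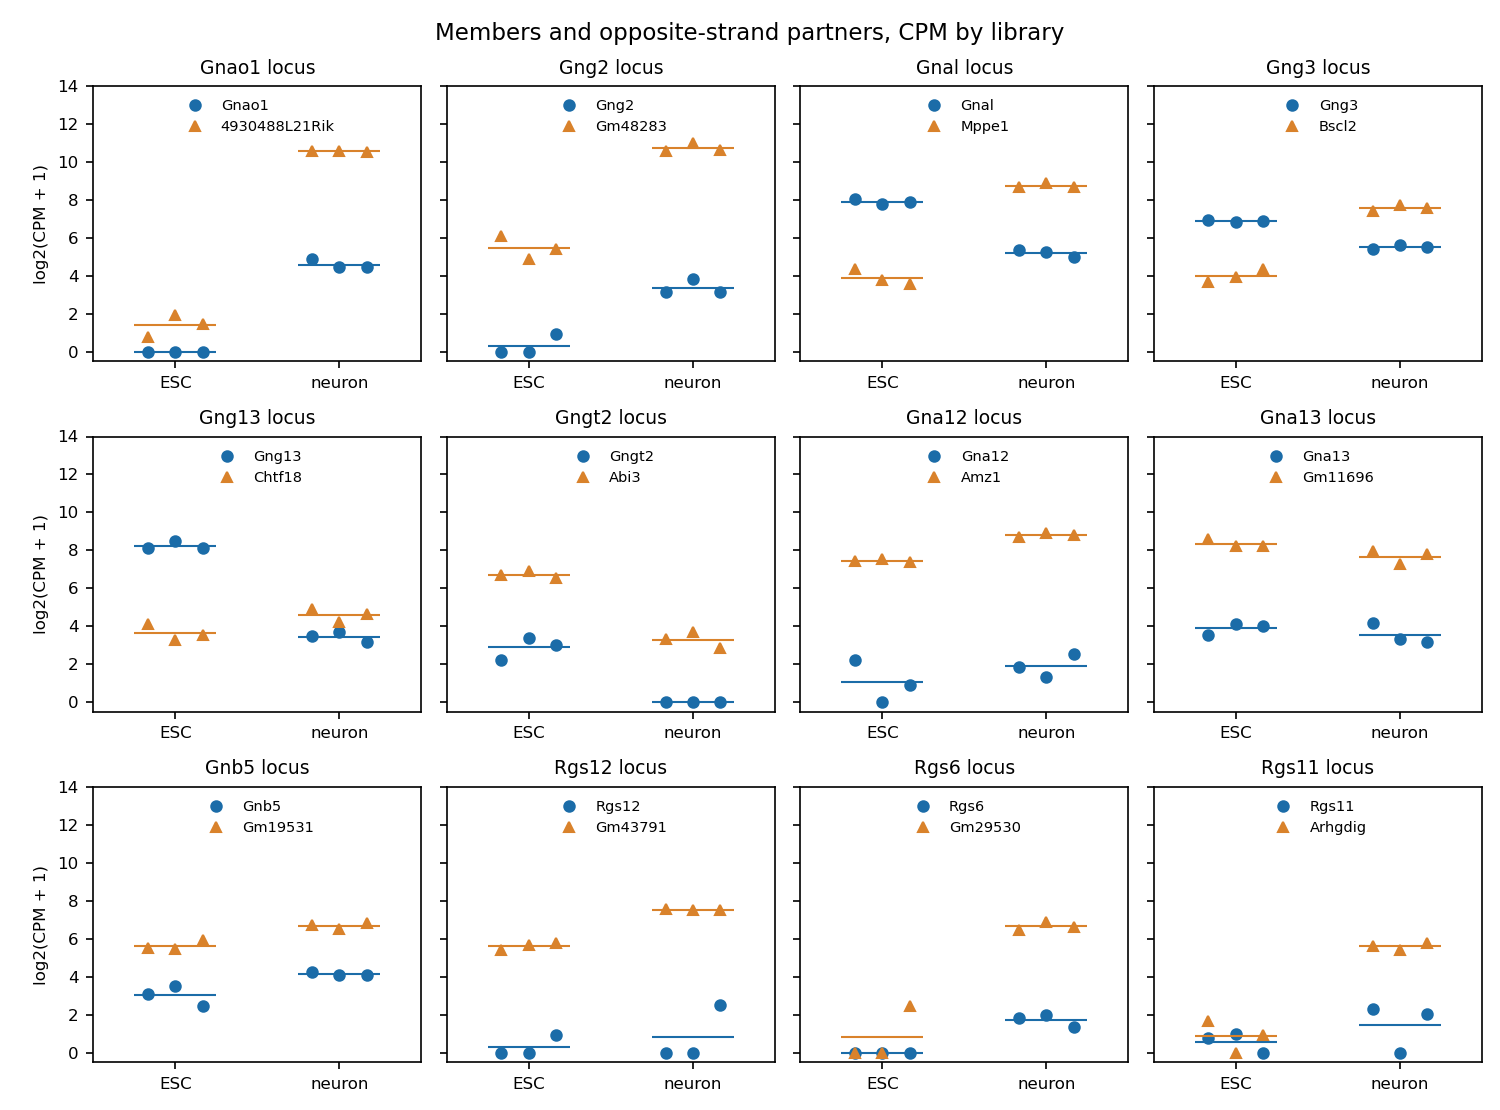
Log2(CPM + 1) of each library (vertical axis) in ESCs and neurons at 12 loci, with members as blue circles, partners as orange triangles and group means as lines. The 12 loci are a selection from the 17 members with a partner, so the order seen here does not hold for every pair. By the group means, the partner lies above the member at all 12 drawn loci in neurons. In ESCs the member lies above the partner at the drawn Gnal, Gng3 and Gng13 loci. Among the loci not drawn, the member lies above its partners in neurons at Gnat1 and Rgs20, and in ESCs at Rgs8.

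Beta subunits pair with gamma subunits and bring G protein signals to channels and enzymes. Gnb4 and Gnb5 rose in neurons, each by less than the 2-fold test could call. Gnb4 (chromosome 3, 32634481 to 32670734, minus strand) has no partner. Its counts were 22, 20 and 22 in ESCs and 37, 27 and 28 in neurons, or 18.6 ± 1.79 and 44.5 ± 4.04 CPM (SD, n = 3 each), without overlap in CPM. Its log2 fold change was 1.26 (SE 0.27, edgeR quasi-likelihood adjusted p = 6.41e-05). In a fit restricted to genes with no exonic overlap on the opposite strand it was 0.51 (adjusted p = 0.0987). Gnb5 (chromosome 9, 75213570 to 75253158, plus strand) encodes the beta subunit that binds the R7 class of RGS proteins. Its counts were 10, 11 and 5 in ESCs and 14, 11 and 10 in neurons, or 7.56 ± 3.06 and 16.9 ± 1.20 CPM (SD, n = 3 each). The Gnb5 groups did not overlap in CPM, and the log2 fold change was 1.16 (SE 0.40, edgeR quasi-likelihood adjusted p = 0.008). That call was lost without ESC replicate 3 (adjusted p = 0.0797), without the low-count filter (0.0534) and with DESeq2's Wald test (0.053). Gm19531, which lies within the span of Gnb5 and shares 248 exonic bases with it, had 59, 45 and 66 counts in ESCs and 81, 62 and 70 in neurons. Its neuron libraries were all higher in CPM, and its log2 fold change was 1.07 (SE 0.20, edgeR quasi-likelihood adjusted p = 9.79e-06), so that Gnb5 and its partner were both higher in neurons.

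The widely expressed beta subunits Gnb1 and Gnb2 had few counts in these libraries. As the strand setting is not given, few counts need not mean low expression. Gnb2 had 11, 5 and 14 counts in ESCs and 9, 10 and 12 in neurons, with overlapping groups and a log2 fold change of 0.79 (SE 0.41, edgeR quasi-likelihood adjusted p = 0.071). Gnb2 passed the threshold without ESC replicate 3 (adjusted p = 0.0416), with total counts (0.00106), with a filter on a mean count of 10 (0.0152) and with the sum of both strands (0.0279). Gnb2 has no partner, so its own counts were unchanged in that last fit. It shares 104 exonic bases with Epo on its own strand. Gnb1 was not tested, with 27, 6 and 26 counts in ESCs and 2, 1 and 4 in neurons. ESC library 2 was well below the other two ESC libraries for Gnb1, and the ratio of the groups was 0.200 (95% interval 0.0769 to 0.438). Gnb3, the beta subunit of cone and taste cells, had 15, 10 and 10 counts in ESCs and 4, 0 and 3 in neurons, without overlap, and was not tested.

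Of the gamma subunits, which anchor the beta-gamma pair to the membrane, 3 of the 4 tested fell in neurons and Gng5 did not pass the test. Gng13 (chromosome 17, 25936145 to 25938380, plus strand) encodes a gamma subunit of taste and retinal bipolar cells. Its counts were 374, 379 and 304 in ESCs and 8, 8 and 5 in neurons, or 308 ± 51.1 and 10.1 ± 1.97 CPM (SD, n = 3 each). The groups were far apart, with all ESC libraries higher, and the log2 fold change was -4.90 (SE 0.24, edgeR quasi-likelihood adjusted p = 4.83e-21). Gng13 had the highest level per length of all members in ESCs, 398 ± 66.1 CPM per kilobase of exon (SD, n = 3). The partner Chtf18, a subunit of a clamp loader used in sister chromatid cohesion, overlaps 399 bases at the 3′ end of Gng13, which are 51.6% of its exonic length. Counts of Chtf18 were 22, 9 and 12 in ESCs and 22, 12 and 15 in neurons. In CPM the Chtf18 groups did not overlap, and its log2 fold change was 0.94 (SE 0.35, edgeR quasi-likelihood adjusted p = 0.0134), a call lost without ESC replicate 2 or 3, without neuron replicate 1, without the filter and with DESeq2's Wald test. The sum of Gng13 and Chtf18 was lower in neurons, with a log2 fold change of -3.05, the direction of Gng13 alone.

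Gng3 (chromosome 19, 8814297 to 8816558, minus strand) encodes a gamma subunit typical of neurons. Its counts were 162, 118 and 130 in ESCs and 32, 32 and 28 in neurons, or 118 ± 3.89 and 44.8 ± 2.96 CPM (SD, n = 3 each). All ESC libraries were higher, and Gng3 fell by 1.40 on the log2 scale (SE 0.20, edgeR quasi-likelihood adjusted p = 5.77e-08). The partner Bscl2 (8814831 to 8826047, plus strand) encodes seipin, a protein of lipid droplet formation, and shares 398 exonic bases with Gng3. Counts of Bscl2 were 16, 15 and 22 in ESCs and 132, 140 and 119 in neurons, or 15.5 ± 4.02 and 191 ± 18.2 CPM (SD, n = 3 each). Bscl2 was higher in every neuron library, and its log2 fold change was 3.62 (SE 0.22, edgeR quasi-likelihood adjusted p = 1.16e-17). The sum of Gng3 and Bscl2 was higher in neurons, by 1.00 on the log2 scale (edgeR quasi-likelihood adjusted p = 1.56e-07). As at Gnal, the sum ran the other way from the member. It holds all counts of Bscl2, which shares 6.75% of its exonic length with Gng3. The stretch below shows how close the 2 genes lie: it holds the 81 bases between the RefSeq start site of Gng3 and one of those of Bscl2, at chr19:8839247-8839327 of GRCm38.p6, on the strand of Gng3. It has 1 CG dinucleotide, in capitals.
Gng3-Bscl2: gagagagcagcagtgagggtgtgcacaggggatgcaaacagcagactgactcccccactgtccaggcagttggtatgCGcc

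Gng7 (chromosome 10, 80784458 to 80850779, minus strand) encodes the gamma subunit that pairs with Golf in the striatum, and it has no partner. Its counts were 76, 53 and 66 in ESCs, or 56.1 ± 4.34 CPM (SD, n = 3), and 0 in all 3 neuron libraries. The neuron level was at least 12.7-fold lower, set against 3 counts per neuron library, and the log2 fold change was -8.70 (SE 0.73, edgeR quasi-likelihood adjusted p = 2.25e-13). With limma-voom the log2 fold change was -6.27. Gng7 was the only tested member with no count in neurons. The 250 bases before its first start site in RefSeq, chr10:81014926-81015175 of GRCm38.p6 on the minus strand, are printed because the gene had counts in one group and none in the other. They hold 15 CG dinucleotides (capitals), as many as 27.3% of all windows hold, and 5 GC boxes on either strand. The window before its second start site, chr10:81001366-81001615, holds 2 CG dinucleotides.
Gng7: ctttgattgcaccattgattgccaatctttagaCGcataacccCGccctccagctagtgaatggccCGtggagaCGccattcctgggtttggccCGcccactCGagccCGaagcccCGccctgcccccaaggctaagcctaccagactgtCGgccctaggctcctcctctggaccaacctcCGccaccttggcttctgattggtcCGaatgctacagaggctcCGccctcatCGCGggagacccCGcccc

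Gng2, a gamma subunit of brain, had too few counts to be tested, with 0, 0 and 1 in ESCs and 6, 9 and 5 in neurons. Its partner Gm48283 (chromosome 14, 19917048 to 19923523, plus strand) had 91, 30 and 47 counts in ESCs and 1150, 1348 and 998 in neurons, or 46.7 ± 20.1 and 1703 ± 269 CPM (SD, n = 3 each). Both genes were higher in every neuron library, and the log2 fold change of Gm48283 was 5.15 (SE 0.23, edgeR quasi-likelihood adjusted p = 9.89e-10). Gm48283 shares 897 exonic bases with the 3′ end of Gng2, which are 60.9% of its exonic length, and per length it was the highest of all members and partners in neurons, at 1155 ± 183 CPM per kilobase (SD, n = 3). Gng5, a widely expressed gamma subunit, had 27, 17 and 24 counts in ESCs and 15, 16 and 11 in neurons. The Gng5 groups overlapped, at 19.5 ± 2.73 and 20.4 ± 3.18 CPM (SD, n = 3 each), and the log2 fold change was 0.06 (SE 0.32, edgeR quasi-likelihood adjusted p = 0.874). With total counts Gng5 was called as higher in neurons (log2 fold change 0.79, adjusted p = 0.0252). Gngt2, the gamma subunit of cone transducin, had 5, 10 and 8 counts in ESCs and 0 in each neuron library. Its partner Abi3, an actin regulator, had 136, 122 and 104 counts in ESCs and 7, 8 and 4 in neurons, with all ESC libraries higher and a log2 fold change of -3.49 (SE 0.29, edgeR quasi-likelihood adjusted p = 9.12e-14). Abi3 shares exonic bases with 3 opposite-strand genes, of which Gngt2 is one. Gng12 had at most 2 counts in any library. The partner of Gng12, 4930597O21Rik, had 70, 43 and 37 counts in ESCs and 26, 18 and 16 in neurons, with overlapping groups in CPM and a log2 fold change of -0.56 (SE 0.27, edgeR quasi-likelihood adjusted p = 0.0499). Its call was lost in 3 of the 6 fits that left out a replicate, those without ESC replicate 1 and without neuron replicate 2 or 3. It was also lost with limma-voom (adjusted p = 0.0882), DESeq2's Wald test (0.124), a filter on a mean count of 10 (0.487) and the sum of both strands (0.149), and its direction turned with total counts, to 0.17.

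Only Rgs19 of the 23 RGS genes had enough counts to be tested, and it rose in neurons. Rgs19 (chromosome 2, 181330212 to 181335770, minus strand) encodes a regulator of the RZ class that acts on Gi, Go and Gz alpha subunits, and it has no partner. Its counts were 0, 1 and 0 in ESCs and 17, 11 and 23 in neurons, or 0.322 ± 0.559 and 25.1 ± 10.6 CPM (SD, n = 3 each). All neuron libraries lay above the ESC libraries, at a ratio of 85.8 (95% interval 14.7 to 3454) and a log2 fold change of 5.88 (SE 0.69, edgeR quasi-likelihood adjusted p = 6.36e-10). Without ESC replicate 2, which held the 1 ESC count, the log2 fold change of Rgs19 was 7.45. Several RGS genes had at most 2 counts in any library, among them the following 4. Rgs4 had no count in ESCs and 0, 1 and 0 in neurons, and Rgs2 had 0 in ESCs and 1, 0 and 1 in neurons. Rgs7 had 0 in ESCs and 2, 2 and 0 in neurons, and Rgs10 had 0 in ESCs and 0, 1 and 1 in neurons. These differences were not detectable at this depth. In all, 17 of the 23 RGS genes had at most 10 counts over the 6 libraries.

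Among the RGS genes with a few more counts, Rgs8 had 9, 12 and 11 in ESCs and 1, 0 and 0 in neurons, and Rgs3 had 9, 3 and 4 in ESCs and 0, 1 and 0 in neurons. Rgs7bp, which anchors R7 proteins at the membrane, had 0, 0 and 1 counts in ESCs and 7, 3 and 6 in neurons. Rgs20 had 1, 0 and 1 counts in ESCs and 8, 3 and 4 in neurons, and Rgs16 had 2, 0 and 2 in ESCs and 6, 2 and 3 in neurons. The groups did not overlap in CPM for any of these 5 genes, with ESCs higher for Rgs8 and Rgs3 and neurons higher for the others. None of the 5 was tested, and they were chosen after their values were seen. Among all genes with a count, the neuron libraries lay above the ESC libraries for 24.2% and below for 22.8%. The sum of Rgs8 and its partner Gm29529 was higher in neurons (log2 fold change 1.95, edgeR quasi-likelihood adjusted p = 8.72e-06). As at Gnal and Gng3, the sum ran the other way from the member and holds all counts of the partner. The 2 genes share only 70 exonic bases.

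The 5 tested partners of RGS genes all rose in neurons, each in every neuron library. Of these, Gm29529, Gm29530, Arhgdig and Gm28513 had at most 5 counts in any ESC library. They passed the low-count filter through the neuron libraries only and could not have been called lower. Among all tested genes with an opposite-strand exonic overlap 41.2% rose, and among all genes with a count the neuron libraries lay above the ESC libraries for 24.2%. Opposite Rgs8, Gm29529 had 1, 0 and 0 counts in ESCs and 32, 15 and 20 in neurons, a ratio of 113 (95% interval 19.5 to 4520; log2 fold change 6.26, SE 0.64, edgeR quasi-likelihood adjusted p = 2.52e-11). Rgs8 held 97.0% of the pair's counts in ESCs and 1.47% in neurons. Opposite Rgs6, Gm29530 had 0, 0 and 5 counts in ESCs and 67, 80 and 61 in neurons (log2 fold change 6.0, SE 0.44, edgeR quasi-likelihood adjusted p = 5.95e-14), while Rgs6, an R7 regulator, had 0 in ESCs and 2, 2 and 1 in neurons. All 5 of the ESC counts of Gm29530 were in ESC replicate 3, and the log2 fold change without that library was 9.43. Opposite Rgs11, Arhgdig had 3, 0 and 1 counts in ESCs and 37, 28 and 34 in neurons, and Rgs11 itself 1, 1 and 0 against 3, 0 and 2. Arhgdig had a ratio of 41.6 (95% interval 15.8 to 156) and a log2 fold change of 5.23 (SE 0.47, edgeR quasi-likelihood adjusted p = 1.04e-12). Opposite Rgs16, Gm28513 had 2 counts in every library of the ESCs and 33, 26 and 25 in neurons, a ratio of 23.6 (95% interval 10.4 to 66.0; log2 fold change 4.45, SE 0.43, edgeR quasi-likelihood adjusted p = 6.92e-12). Opposite Rgs12, Gm43791 had 56, 52 and 60 counts in ESCs and 147, 124 and 113 in neurons (log2 fold change 1.93, SE 0.18, edgeR quasi-likelihood adjusted p = 1.87e-12), and Rgs12 itself 0, 0 and 1 against 0, 0 and 3. Of the exonic length of Gm43791, 99.8% lies within exons of Rgs12. Opposite Rgs20, Atp6v1h had 5, 1 and 5 counts in ESCs and 4, 0 and 1 in neurons, and Gm17101 had 1 count in all.

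**Figure D3:**
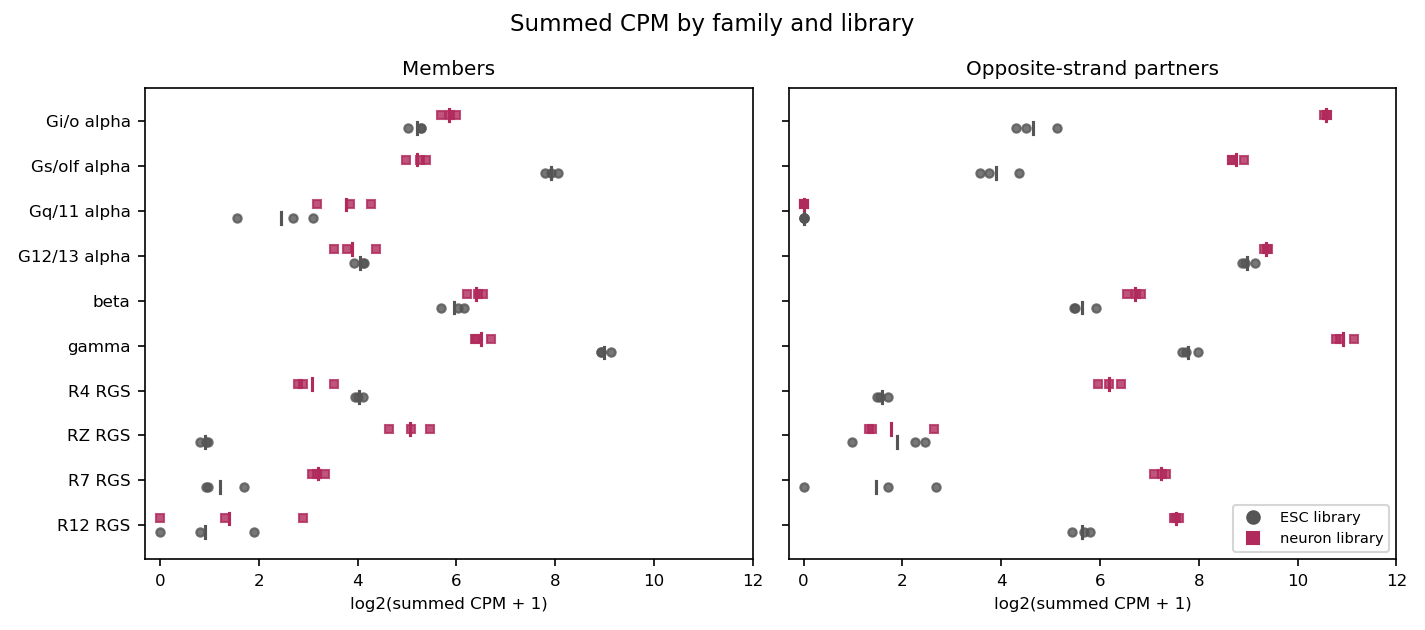
Log2(summed CPM + 1) of each family (horizontal axis) in each library, with ESCs as grey circles, neurons as red squares and group means as bars, for members (left) and their partners (right). Among the members the neuron libraries lie below the ESC libraries for the Gs/olf alpha, gamma and R4 RGS families, while the partners of the same families lie higher in neurons.

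Summed over families, the gamma genes stood at 511 ± 41.7 CPM in ESCs and 89.4 ± 11.7 CPM in neurons (SD, n = 3 each), and their partners stood at 222 ± 27.0 and 1955 ± 281 CPM. The Gi/o alpha genes summed to 35.8 ± 3.62 CPM in ESCs and 57.0 ± 6.02 CPM in neurons, and their partners to 24.8 ± 7.98 and 1522 ± 37.2 CPM. The beta genes summed to 61.3 ± 9.96 and 83.5 ± 9.45 CPM. The RGS genes summed to 19.0 ± 2.64 and 60.5 ± 15.3 CPM, and their partners to 56.6 ± 8.34 and 411 ± 5.75 CPM. For each of these sums the 3 ESC libraries and the 3 neuron libraries did not overlap, and none was tested. Per length, the leading members in ESCs were Gng13 at 398, Gng3 at 71.8 ± 2.37, Gnal at 21.6 ± 2.00 and Gng7 at 14.8 ± 1.15 CPM per kilobase (SD, n = 3). In neurons they were Gng3 at 27.3 ± 1.80, Gng13 at 13.1 ± 2.55 and Rgs19 at 11.3 ± 4.73 CPM per kilobase (SD, n = 3), of which the last 2 do not differ beyond their spread.

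Of all counts on members and partners together, the members held 48.4%, 51.7% and 51.5% in ESC libraries 1 to 3 and 7.07%, 5.76% and 6.77% in neuron libraries 1 to 3. The groups did not overlap, and the difference, neuron minus ESC, was -44.0 percentage points (50.5% ± 1.88 against 6.53% ± 0.69, SD, n = 3 each; exact two-sided permutation p = 0.1, the smallest that 3 against 3 samples allow). Gng13, Gnal and Gng3 held 72.0% to 77.7% of the member counts in ESCs and 23.3% to 29.2% in neurons. Without these 3 loci the members' share was 19.6% to 23.8% in ESCs and 4.74% to 6.13% in neurons. The difference of the medians over loci was -4.32 percentage points (exact two-sided permutation p = 0.2), and with partners of a single gene only the difference was -60.2 percentage points. At these 3 loci, which held most of the member counts in ESCs, the members' part went from 96.1% to 30.0% for Gng13, from 94.3% to 7.78% for Gnal and from 88.6% to 19.0% for Gng3. Among the partners in neurons, 4930488L21Rik and Gm48283 held the most counts, 3139 and 3496 over the 3 libraries.

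**Figure D4:**
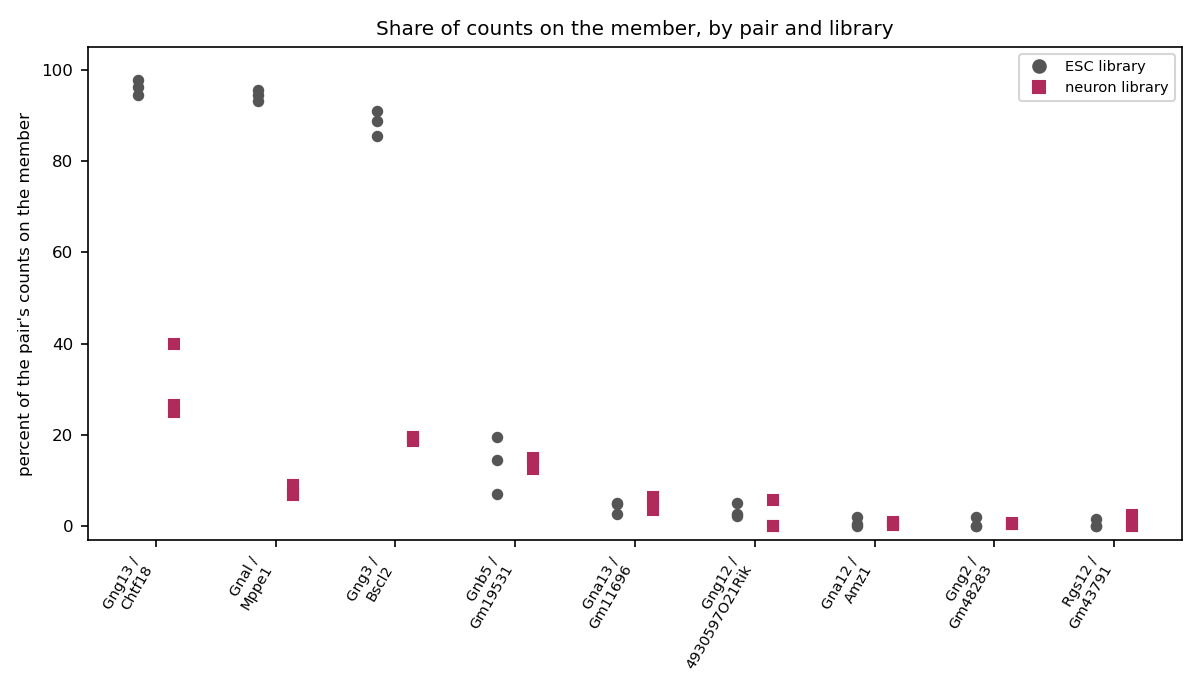
Percent of each pair's counts that stand on the member (vertical axis) in each ESC library (grey circles) and neuron library (red squares), for the 9 pairs with at least 40 counts in each group. The Gng13, Gnal and Gng3 pairs lie above 80% in ESCs and at or below 40% in neurons, and the other 6 pairs stay below 20% in all libraries.

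When the counts of each member and its partners were summed, 23 members could be tested and 21 were called, 15 higher and 6 lower in neurons, with 17 of the 21 past 2-fold. Of all genes summed in this way 86.5% were called, 46.8% higher and 39.7% lower, with 64.3% past 2-fold. Among the 17 members with a partner, 16 were tested and 11 were higher, 4 lower and 1 not called. Of these 16 loci the largest increases were at Gnao1 (log2 fold change 9.87), Rgs6 (6.22) and Gng2 (5.34). The loci of Gngt2 (-3.39), Gng13 (-3.05), Gnat1 (-2.71) and Gna13 (-0.47) were lower in neurons.

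The other genes of the pathway were taken from a list of 46 effectors and modulators, of which 15 were tested and 9 were higher and 4 lower in neurons, near the 85.6% called among all tested genes (47.0% higher, 38.6% lower). Of their 16 opposite-strand partners, 15 were tested and 12 were higher and 0 lower by edgeR's quasi-likelihood test, beside 41.2% higher and 43.4% lower among all tested genes with an opposite-strand exonic overlap. Among them, 9630028H03Rik, Dnlz, Gm13327, Gm35161, Gm36937 and Gm41505 had at most 5 counts in any ESC library. These passed the low-count filter through the neuron libraries only and could not have been called lower. The median log2 fold change was 1.27 over the tested genes of the list and 2.36 over their partners, beside 0.37 over all tested genes. Kcnj3, a channel opened by beta-gamma, had no count in ESCs and 15, 21 and 23 in neurons, a level at least 11.1-fold higher than 3 counts per ESC library (log2 fold change 7.74, SE 0.80, edgeR quasi-likelihood adjusted p = 5.26e-11). With limma-voom the log2 fold change of Kcnj3 was 6.03. Kcnj6, a subunit of the same kind of channel, had 89, 42 and 75 counts in ESCs and 2, 0 and 2 in neurons (log2 fold change -4.83, SE 0.47, edgeR quasi-likelihood adjusted p = 8.55e-12). The 2 channel genes thus moved in opposite directions, and the sum of Kcnj6 and its partner, which had 1, 0 and 3 counts in ESCs and 31, 13 and 40 in neurons, was not called (log2 fold change -0.30, edgeR quasi-likelihood adjusted p = 0.394). Adcy9, an adenylyl cyclase, had 247, 227 and 197 counts in ESCs and 3, 0 and 0 in neurons (log2 fold change -6.94, SE 0.38, edgeR quasi-likelihood adjusted p = 4.88e-19). Arrb1, which encodes an arrestin that ends receptor signals, had 30, 32 and 43 counts in ESCs and 3, 0 and 2 in neurons (log2 fold change -3.58, SE 0.51, edgeR quasi-likelihood adjusted p = 6e-08). Neither the Adcy9 nor the Arrb1 groups overlapped, and without neuron replicate 1, which held all 3 neuron counts of Adcy9, its log2 fold change was -10.53. Gpsm2, which encodes a modulator of Gi alpha that also orients the spindle, had 101, 76 and 85 counts in ESCs and 34, 34 and 28 in neurons. Gpsm2 fell by 0.69 on the log2 scale (SE 0.21, edgeR quasi-likelihood adjusted p = 0.00321), and with total counts its log2 fold change was 0.04. Gpsm3 (0, 2 and 1 counts in ESCs and 16, 7 and 7 in neurons), Gprin1 (1, 2 and 1 against 8, 7 and 6) and Grk5 (1, 2 and 4 against 12, 10 and 8), a receptor kinase, were higher in every neuron library, with log2 fold changes of 3.87, 3.00 and 2.77.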

How the data were processed

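RNA from 3 ESC and 3 neuron samples was primed with oligo-dT and read as paired ends, per the labels' protocols. The authors deposited raw counts in a table, with each gene's position, strand and exonic length. The submitters' processing notes name cutadapt, STAR, RSEM and GRCm39. The counting tool, its strand setting and all versions are not given in the sources used here. Samples were grouped by title, and 0 sample columns were unmapped. Genes were kept by filterByExpr (minimum count 10) and scaled by TMM. They were tested over all 7150 genes with edgeR 4.0.16 in R 4.3.3 (estimateDisp, robust glmQLFit, glmQLFTest, glmTreat at 2-fold, Benjamini-Hochberg threshold 0.05). CPM used TMM-scaled library sizes. Standard errors are the log2 fold change divided by the square root of F. Ratios of counts have exact conditional binomial 95% intervals. Exon overlaps came from the table's positions, with bedtools 2.31.1. Symbols were matched by gene identifier for 91.3% of genes. Promoter windows came from RefSeq (GRCm38.p6), a build other than that of the table, and no position was converted.

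Total counts per library were 513425 to 1775055. On simulated counts for 7150 genes of the neuron and ESC comparison, with 200 genes changed 4-fold, the edgeR steps called 88% of the changed genes, and 5.38% of calls were unchanged genes. The members and gene lists were chosen with earlier results of these data known. Values in every library were given for members and partners past the threshold with an average log2 CPM of at least 3, for members of pairs so described, and for the 4 highest and 4 lowest called pathway genes. Examples of other members, Gnat1, Gnaq, Gnai1, Gnai3, Gnaz, Gnb1, Gnb3 and the untested RGS genes among them, were chosen after their values were seen. The result of 1 marker list is not reported here. Alternatives were DESeq2 1.42.0 size factors, total counts, no filter, a filter on a mean count of 10, limma-voom (limma 3.58.1), the replicate block, DESeq2's Wald test, only genes sharing no exonic base, the sum of both strands, and leaving out each replicate.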

Additional observations from a re-analysis of the deposited data

How the results depend on the processing

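With no low-count filter the calls numbered 11762 over all genes (9129 past 2-fold), 22 over members (19 past 2-fold) and 25 over pathway genes. Among genes with no exonic overlap these counts were 1950 (1630), 4 (4) and 6. Fewer genes were tested there, and Gnb4 was tested but lost its call, with a log2 fold change of 0.51 against 1.26 in the main fit. With the sum of both strands, 21 members (17 past 2-fold) and 20 pathway genes were called. The members' share of counts differed by -4.32 percentage points as the median over loci and by -60.2 with partners of 1 gene only. Direction turned with total counts for Gna13 (0.47), Gm11696 (0.063), 4930597O21Rik (0.17) and Gpsm2 (0.036), as that scaling raises all log2 fold changes, and with a filter on a mean count of 10 for Gna13 (0.10). With the sum of both strands it turned for Gnal (1.06), Gng3 (1.00) and Chtf18 (-3.05). Gng5, which was not called, turned with no filter (-0.10), among genes sharing no exonic base (-0.69), without ESC replicate 2 (-0.11) and without neuron replicate 2 (-0.13), with leave-one-out values from -0.13 to 0.11, and it gained a call as higher with total counts (0.79). The cause was not tested, apart from those 2 constructions.

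Leaving out each replicate in turn gave 5430 to 7353 calls over all genes (4294 to 5862 past 2-fold), 9 to 15 over members (7 to 12), 14 to 15 over partners and 12 to 17 over pathway genes, and a share difference of -45.1 to -43.4. Over the 37 named genes, 198 of these leave-one-out values kept direction and side of the threshold, 7 lost and 1 gained a call, and 2 turned. Of the other settings' values, 273 kept both, 13 lost and 5 gained a call, and 10 turned. The replicate numbers do not pair the samples: same-numbered deviations correlated at 0.0185, 0.0039 and -0.0218. With the replicate block 6088 genes were called (4781 past 2-fold), with 10 members (8), 16 partners and 13 pathway genes. Low counts left 44 of the 57 members untested, with at most 66 counts over the 6 libraries. The filter favoured genes high in the smaller neuron libraries. Gnb3, with 15, 10 and 10 counts in ESCs, was untested, while Gnat2, with 14, 13 and 12 in neurons, was tested. With a filter on a mean count of 10, 11 members were tested and 9 called, 3 higher and 6 lower in neurons. The main fit had 5 higher and 5 lower.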
